A study of Homo sapiens with 6 samples.

Results

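The results below concern 60 genes that build and run mitosis, out of the 27745 genes of the count table. They were listed by name for their known function, at a time when earlier results of these data were known. All 60 were found in the table and all 60 passed the filter on low counts. They were described by 9 roles: CDK1 with 3 cyclins, PLK1 with AURKA, 5 spindle checkpoint genes, 10 genes of the anaphase-promoting complex (APC/C) with securin and separase, 11 centromere and kinetochore genes, 4 genes of the chromosomal passenger complex, 9 kinesins, 9 spindle and cytokinesis factors, and 6 genes of condensin with topoisomerase II alpha.

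RNA-seq covered bulk cultures of MDA-MB-231, a human triple-negative breast cancer cell line that grows with mesenchymal features. Cells were infected with lentivirus that carried the control hairpin sh-TRC, or sh-MIR100HG-1 or sh-MIR100HG-2, hairpins of different sequence directed at MIR100HG, a long non-coding RNA whose gene also hosts microRNAs. The control cells were infected too, so all 3 groups share infection and expression of a hairpin. Each group has 2 biological replicates, named CTR1 and CTR2 for sh-TRC, KD1-1 and KD1-2 for sh-MIR100HG-1, and KD2-1 and KD2-2 for sh-MIR100HG-2. The comparisons ask whether knockdown of MIR100HG was accompanied by another level of mitotic transcripts, and whether both hairpins gave the same picture.

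As cells enter mitosis, cyclin B with CDK1 and the polo and aurora kinases drive chromosome condensation and spindle assembly. Kinetochores tie chromosomes to microtubules, and the spindle checkpoint holds back the APC/C until every chromosome is attached. The APC/C then marks securin and cyclin B for destruction, separase cuts cohesin, and kinesins, the central spindle and the contractile ring divide the cell. Many of these genes are transcribed mainly in G2 and mitosis, and their level in a culture usually tracks the share of dividing cells. A DNA element of their promoters, the cell cycle genes homology region (CHR), is bound by the MuvB core with either the DREAM repressor or the activators MYBL2 and FOXM1, and a CCAAT box, bound by NF-Y, often lies upstream of it.

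To show what these promoters share, RefSeq windows on GRCh38.p14, from 250 bases before to 50 bases after the annotated start, were searched on both strands for the CHR letters TTTGAA, which read TTCAAA on the other strand, and also for TTCGAA, which reads the same on both, and for CCAAT, which reads ATTGG on the other strand. The 8 stretches of 30 bases below are written 5′ to 3′ on the strand of the gene, with the CHR match in capitals and its first base counted from the start site. The first 4 belong to genes with an unadjusted p under 0.05 between the shRNA groups and the last 4 to genes without one. The HMMR stretch holds a further CHR match, left in lower case directly before the capitals.
CDK1 promoter (plus strand, chr10:60778453-60778482, motif from base -13): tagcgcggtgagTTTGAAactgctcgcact
NUF2 promoter (plus strand, chr1:163321958-163321987, motif from base 17): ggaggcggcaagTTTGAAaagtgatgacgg
KIF18A promoter (minus strand, chr11:28108149-28108178, motif from base -10): aagtggcttgggTTTGAAtattgtggttga
HMMR promoter (plus strand, chr5:163460598-163460627, motif from base -22): gggagatttgaaTTTGAAaccggtagggag
CCNB2 promoter (plus strand, chr15:59105105-59105134, motif from base -29): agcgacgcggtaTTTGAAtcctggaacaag
PLK1 promoter (plus strand, chr16:23678848-23678877, motif from base -29): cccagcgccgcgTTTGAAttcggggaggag
CENPA promoter (plus strand, chr2:26786026-26786055, motif from base -18): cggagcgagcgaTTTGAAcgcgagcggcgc
CDC20 promoter (plus strand, chr1:43358904-43358933, motif from base -65): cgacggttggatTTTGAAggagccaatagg

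A window was listed for 51 of the 60 genes, and 37 of these (72.5%) held a CHR match, against 19.5% of the 27305 genes with a listed window. A CCAAT match was found in 40 of the 51 (78.4%), against 39.7% of all listed genes, and both kinds in 28 (54.9%), against 9.02%. A gene with several listed starts was counted over all its windows, for mitotic and for all genes, so both kinds need not share a window. The matches are a description of letters in a window, and binding of a factor was not measured here.

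Total counts ranged from 43804736 to 64588388 per sample, and the 60 genes took between 0.581% and 0.860% of them, with the 2 lowest shares in KD2-1 and KD2-2. MIR100HG, the targeted RNA, stood at 41.9 and 58.5 CPM (counts scaled to library size, with TMM factors) in the controls and between 10.4 and 16.6 in the 4 knockdown samples, with no overlap, a log2FC of -1.86 and an edgeR adjusted p of 0.381. VIM (1607 to 2095 CPM) and CD44 (538 to 957 CPM), which mark this line, were high in all 6 samples, with both KD2 samples above both KD1 samples. PGR was at 0 to 0.024 CPM, ERBB2 at 71.6 to 116 CPM and CDH1 at 1.499 to 7.05 CPM, each with overlap between the shRNA groups, while PECAM1 was not analysed here. The epithelial marker EPCAM was at 9.77 and 5.62 CPM in the controls, 11.7 and 13.0 with sh-MIR100HG-1 and 4.36 and 5.97 with sh-MIR100HG-2. ESR1 (0.59 to 2.79 CPM against 0.12 to 0.15) and the leukocyte marker PTPRC (0.29 to 0.35 CPM against 0.12 to 0.13) were also lower in both KD2 samples than in both KD1 samples. In CTR1 and CTR2, ESR1 was at 0.19 and 2.38 CPM and PTPRC at 0.69 and 0.41 CPM. PTPRC had only 6 to 37 counts in a sample. The part of these markers in the results was not tested.

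Per length of counted exon, mitotic genes were among the more abundant transcripts of the control cells. Their median was 22.2 CPM per kb of exon, against 4.05 for all 15372 genes tested, and 59 of the 60 lay above that median. The order began with UBE2C, the ubiquitin-conjugating enzyme that starts chains on APC/C substrates, at 139 ± 16.9 CPM per kb (mean ± SD, n = 2), followed by TPX2, the activator of Aurora A at the spindle, at 130.3 ± 5.69, and UBE2S, the enzyme that extends those chains, at 129.6 ± 42.8. These 3 did not differ beyond the spread between the control replicates. Cyclin B1 (CCNB1, 93.7 ± 8.22), TOP2A (84.7 ± 15.6), CDC20 (76.3 ± 21.6) and Aurora A (AURKA, 68.0 ± 8.61) came next with ranges that overlapped among neighbours. The lowest levels were those of the APC/C scaffold ANAPC1 at 4.36 ± 0.242 CPM per kb and HMMR, a microtubule-binding spindle protein, at 2.11 ± 0.739. Within the kinetochore role the range was narrow, from 5.53 CPM per kb for CENPK to 24.5 for CENPF, while the APC/C role spanned 4.36 to 139.

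**Figure D1:**
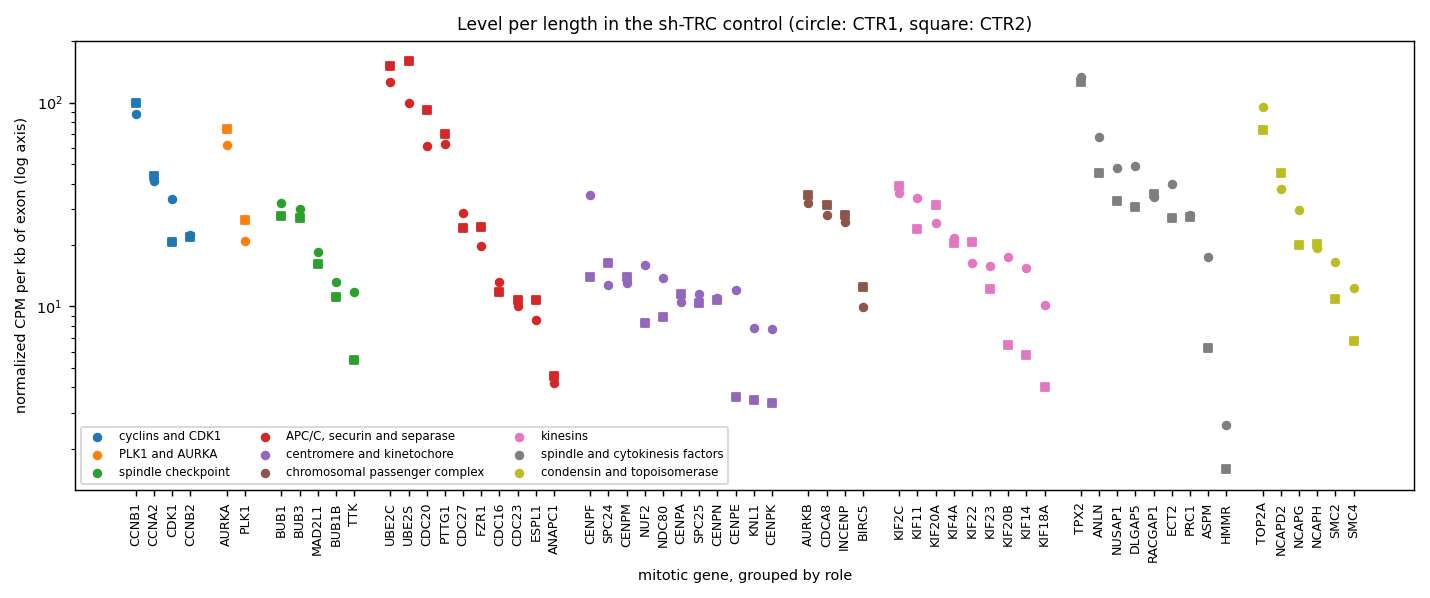
Level of each of the 60 mitotic genes in the control cells as normalized CPM per kb of exon (log axis), grouped by role, with a circle for CTR1 and a square for CTR2. UBE2C, UBE2S and TPX2 lie at the top near or above 100 and HMMR at the bottom, and for TTK, KIF14, KIF18A, KIF20B, ASPM, CENPE, CENPF, CENPK and KNL1 CTR1 lies more than 1 log2 unit above CTR2.

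In none of the comparisons did a mitotic gene pass an adjusted p of 0.05 in edgeR's quasi-likelihood test, which called 0 of all 15372 genes (0%). What differed was the position of the sh-MIR100HG-2 samples. Relative to the control mean, the median of the 60 genes was 0.056 (CTR1), -0.056 (CTR2), 0.14 (KD1-1), 0.17 (KD1-2), -0.29 (KD2-1) and -0.38 (KD2-2) on the log2 scale, while the median of all genes tested stayed between -0.070 and 0.020. Both sh-MIR100HG-2 samples thus lay below, and both sh-MIR100HG-1 samples above, both controls. Bulk RNA cannot tell fewer cells in mitosis from less RNA per cell.

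With both hairpins averaged against sh-TRC, 41 of the 60 genes lay lower and 19 higher, with a median log2FC of -0.11 (-0.036 for all genes). CDC23 alone had an unadjusted p under 0.05, on the higher side, where 3.23% of all genes stood. On the lower side 0 had one, where 4.44% stood. After the GC and length correction given further on, CDC23 no longer had an unadjusted p under 0.05. BUB3 alone then had one, on the lower side, where 667 of all 15372 genes stood. ANAPC1 and CDC23 were higher in all 4 knockdown samples than in both controls (8.4% of all genes), and BUB3 and UBE2C lower (9.08% of all genes). The smallest adjusted p of a mitotic gene was 0.649, and without CTR1 the median log2FC was 0.028. A pooled knockdown effect on the mitotic genes was not detectable with these samples.

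Against sh-TRC, sh-MIR100HG-1 gave 40 genes higher and 20 lower, with a median log2FC of 0.16 (-0.0037 for all genes). ANLN, the anillin scaffold of the contractile ring, was the only gene of the 60 with an unadjusted p under 0.05, on the higher side (3.1% of all genes), and 0 were on the lower side (3.77%). Groups did not overlap for 17 genes on the higher side (20.3% of all genes) and for BUB3, UBE2C and INCENP on the lower side (20.2%). The smallest adjusted p was 0.714. Without CTR1 the number of genes at an unadjusted p under 0.05 was 13, all higher (5.96% of all genes higher), and without CTR2 it was 0 (1.03%), so that the count over all genes moved with the same samples.

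Against the same controls, sh-MIR100HG-2 gave 53 genes lower and 7 higher, with a median log2FC of -0.30 (-0.044 for all genes), and CENPN, SPC24 and TPX2 changed sign under RLE scaling. An unadjusted p under 0.05 was reached by 10 genes, all lower (5.15% of all genes), and by 0 on the higher side (3.71%): CDK1, MAD2L1, TTK, CENPF, KIF14, KIF18A, KIF20B, HMMR, ASPM and TOP2A. The samples did not overlap with the controls for 20 genes on the lower side (20.4% of all genes) and for ANAPC1 and CDC23 on the higher side (18.1%). The smallest adjusted p was 0.508. The count was 0 without CTR1 (2.28% of all genes lower), where 49 of the 60 genes still lay lower with a median of -0.22, and it was 18 without CTR2 (6.26%). It was 2 without KD2-2 (3.84%) and 16 without KD2-1 (7.86%).

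The shRNA groups were then compared with each other, with log2FCs that set no control sample against them. The spread behind the p-values was estimated from all 6 samples, controls included. Here 53 genes were lower with sh-MIR100HG-2 and 7 higher, with a median log2FC of -0.37 (-0.012 for all genes). An unadjusted p under 0.05 was reached by 22 genes, all lower, where 6.12% of all genes stood, and by 0 on the higher side (3.34%). All 22 had the same adjusted p of 0.509. In 33 genes both KD2 samples lay below both KD1 samples (23.3% of all genes), and in FZR1 alone they lay above (20.6%). With RLE scaling in place of TMM, CCNB1, PLK1, UBE2C and KIF22, all within 0.020 of 0, changed sign and 49 genes lay lower. The count at an unadjusted p under 0.05 was 12 without KD2-2 (4.16% of all genes lower) and 14 without KD1-2 (3.76%). Likelihood ratio testing in edgeR called TTK alone (0.325% of all genes lower), and DESeq2 called TTK and KIF18A (0.325%).

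**Figure D2:**
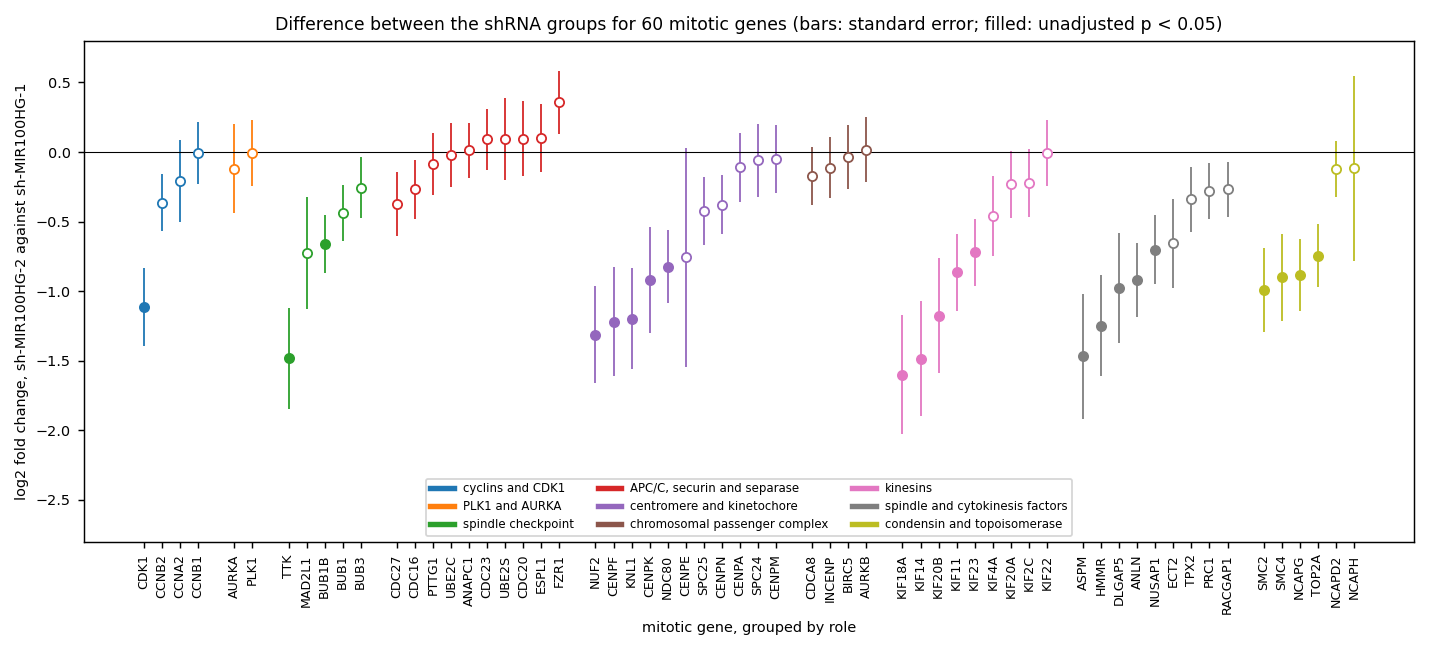
Difference between sh-MIR100HG-2 and sh-MIR100HG-1 for each of the 60 mitotic genes as log2 fold change with its standard error, grouped and coloured by role, with filled points for an unadjusted p under 0.05. The 22 filled points lie between -0.66 (BUB1B) and -1.60 (KIF18A), none of them in the APC/C, chromosomal passenger, or PLK1 and AURKA roles.

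Among the cyclins and CDK1, CDK1 alone had an unadjusted p under 0.05 between the shRNAs. CDK1 (plus strand, chr10:62538089-62554610), coordinates on GRCh37, encodes the kinase that drives entry into mitosis. It stood at 133 and 81.4 CPM in CTR1 and CTR2, 123 and 144 in KD1-1 and KD1-2, and 67.8 and 55.1 in KD2-1 and KD2-2. Both KD2 samples lay below the other 4, and the difference between the shRNAs was -1.12 ± 0.28 (log2FC ± SE), with -0.80 against sh-TRC and 0.31 for sh-MIR100HG-1. Cyclin B1, its activating partner, was at 225 and 254 CPM in the controls, 193 and 237 with sh-MIR100HG-1 and 190.0 and 237 with sh-MIR100HG-2. The 3 groups of CCNB1 overlapped, replicate 2 was the higher in each, and the log2FC between the shRNAs was -0.0082, with a 95% interval of -0.52 to 0.50. CCNB2 lay at 62.8 and 61.6 CPM in the controls, 62.8 and 62.3 with sh-MIR100HG-1 and 51.9 and 45.3 with sh-MIR100HG-2. Its KD2 samples were below all others, with a log2FC of -0.36 between the shRNAs that did not reach an unadjusted p of 0.05. CCNA2, the cyclin of S phase and G2, overlapped among all groups at 91.9 to 164 CPM.

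PLK1 and AURKA, kinases of centrosome maturation and spindle assembly, had no unadjusted p under 0.05 in any comparison. PLK1 was measured at 99.5 and 127 CPM in the controls, 102 and 117 with sh-MIR100HG-1 and 93.4 and 125 with sh-MIR100HG-2, a log2FC of -0.0066 between the shRNAs with a 95% interval of -0.56 to 0.54. AURKA was at 181 and 217, 131 and 219 and 122 and 200.3 CPM in the same order of groups, a log2FC of -0.12 with a 95% interval of -0.86 to 0.62. In both genes and all 3 groups replicate 2 exceeded replicate 1, and the groups overlapped. The interval for AURKA overlaps that for CDK1, from -1.75 to -0.48, and no test compared these genes with CDK1.

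The 5 checkpoint genes were all lower with sh-MIR100HG-2, and in all 5 both KD2 samples lay below both controls (20.4% of all genes). TTK, the MPS1 kinase that starts checkpoint signalling, was at 53.6 and 24.9 CPM in the controls, 49.3 and 56.7 with sh-MIR100HG-1 and 21.7 and 16.2 with sh-MIR100HG-2, with a log2FC of -1.48 ± 0.36 between the shRNAs and -1.05 against sh-TRC. CTR2 lay much nearer to the KD2 samples than CTR1 did. BUB1B, the BUBR1 component of the complex that inhibits CDC20, was at 58.8 and 49.7, 66.1 and 69.5 and 44.8 and 40.9 CPM, so that its 3 groups did not overlap at all, and it differed by -0.66 ± 0.21 between the shRNAs. BUB1, the kinase that marks centromeres, was at 193 and 168, 179 and 177 and 139 and 124 CPM, with -0.44 between the shRNAs and -0.46 against sh-TRC, neither at an unadjusted p under 0.05. MAD2L1, which encodes the checkpoint protein MAD2, was at 106 and 92.3 CPM in the controls, 52.8 and 115 with sh-MIR100HG-1 and 35.1 and 66.2 with sh-MIR100HG-2. Its replicates were far apart in both shRNA groups, with replicate 2 about 2 times replicate 1 in each, and only its difference from sh-TRC (-0.97 ± 0.41) had an unadjusted p under 0.05. BUB3, the partner of BUB1 and BUBR1, was at 248 and 226, 223 and 189.5 and 195 and 151 CPM, lower than both controls in all 4 knockdown samples.

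In the APC/C role 6 of the 10 genes were higher and 4 lower with sh-MIR100HG-2 than with sh-MIR100HG-1, with a median of 0.051, and UBE2C changed sign under RLE scaling and CDC20, CDC27, ESPL1, PTTG1 and UBE2S after the GC and length correction given further on. CDC20, the activator that the checkpoint holds back, was at 124 and 187 CPM in the controls, 138 and 98.4 with sh-MIR100HG-1 and 129 and 123 with sh-MIR100HG-2. UBE2C was at 163 and 194, 133 and 162 and 129 and 161 CPM, with all 4 knockdown samples below the lower control. Securin (PTTG1) was at 126 and 142, 126 and 151 and 115 and 146 CPM. None of these 3 differed between the shRNAs by more than 0.10 log2 units, with 95% intervals of -0.52 to 0.71, -0.54 to 0.50 and -0.60 to 0.43. CDC27, the TPR subunit that receives the activators, was at 197 and 166, 202 and 217 and 186 and 137 CPM, a log2FC of -0.37 without an unadjusted p under 0.05. CDC23, another TPR subunit, was at 46.2 and 49.7, 55.4 and 71.4 and 64.5 and 70.5 CPM. All 4 knockdown samples of CDC23 exceeded both controls, with a log2FC of 0.45 ± 0.19 for the mean of both hairpins. The remaining members, ANAPC1, CDC16, the late activator FZR1, the conjugating enzyme UBE2S and separase (ESPL1), lay between -0.27 and 0.36 between the shRNAs, and none had an unadjusted p under 0.05 in any comparison.

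All 11 centromere and kinetochore genes lay lower with sh-MIR100HG-2 than with sh-MIR100HG-1, with a median of -0.76 (-0.41 after a correction for GC content and length), and 5 had an unadjusted p under 0.05 (6.12% of all genes lower). The genes of the NDC80 complex, the microtubule-binding arm of the kinetochore, had log2FCs of unlike size. NUF2 was at 53.4 and 27.9 CPM in the controls, 52.0 and 64.8 with sh-MIR100HG-1 and 28.1 and 19.0 with sh-MIR100HG-2 (-1.31 ± 0.35 between the shRNAs). NDC80 was at 49.7 and 31.8, 46.4 and 49.9 and 27.9 and 26.5 CPM (-0.82 ± 0.26), and both KD2 samples lay below all others. SPC25 differed by -0.42 and SPC24 by -0.059, so that the 4 subunits of 1 complex ranged from a difference of more than 2 times to one smaller than their error. KNL1, the platform for checkpoint proteins, was at 80.4 and 35.7, 78.7 and 98.6 and 41.3 and 36.0 CPM (-1.20 ± 0.36). CENPF, a large protein of the outer kinetochore and nuclear envelope, was at 411 and 162, 357 and 349 and 172 and 131 CPM (-1.22 ± 0.39, and -0.92 against sh-TRC). CENPK, of the inner kinetochore network, was at 33.3 and 14.4, 34.0 and 35.6 and 21.2 and 15.6 CPM (-0.92 ± 0.38). In KNL1 and CENPF, CTR1 stood among or above the KD1 samples, and in CENPK slightly below both. In all of KNL1, CENPF and CENPK, CTR2 stood among or below the KD2 samples.

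CENPE, the kinetochore motor that carries chromosomes to the plate, varied most between replicates. It was at 113 and 33.9 CPM in the controls, 60.5 and 20.7 with sh-MIR100HG-1 and 39.6 and 8.53 with sh-MIR100HG-2, so that replicate 1 was more than 2 times replicate 2 in every group. Its SE of 0.79 on a difference of -0.76 between the shRNAs was the largest among the 60 genes. CENPA, the histone variant that marks the centromere, was at 20.9 and 22.7, 20.1 and 21.3 and 16.6 and 21.7 CPM, with a log2FC of -0.11 between the shRNAs and a 95% interval of -0.67 to 0.45. CENPM and CENPN stood at -0.049 and -0.38.

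The chromosomal passenger complex corrects faulty attachments and starts cytokinesis. AURKB, its kinase, was at 72.2 and 78.5 CPM in the controls, 85.6 and 75.6 with sh-MIR100HG-1 and 68.4 and 94.7 with sh-MIR100HG-2. BIRC5, which encodes survivin, was at 37.7 and 47.3, 39.983 and 34.4 and 38.4 and 34.1 CPM. The groups overlapped for both, and across AURKB, BIRC5, INCENP and CDCA8 (borealin) the difference between the shRNAs ran from -0.17 to 0.017, with none at an unadjusted p under 0.05 in any comparison.

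All 9 kinesins were lower with sh-MIR100HG-2 than with sh-MIR100HG-1 and than sh-TRC, with medians of -0.72 and -0.35, except that KIF22 changed sign between the shRNAs under RLE scaling. The widest difference of the 60 genes was that of KIF18A (minus strand, chr11:28042167-28129855) on GRCh37, the motor that damps chromosome movements on the plate, which was at 47.3 and 18.7 CPM in the controls, 39.8 and 47.1 with sh-MIR100HG-1 and 17.3 and 11.4 with sh-MIR100HG-2 (-1.60 ± 0.43). KIF14, a motor of the midbody, was at 112 and 41.9, 87.2 and 92.3 and 36.6 and 27.6 CPM (-1.48 ± 0.41), and KIF20B, another cytokinesis motor, at 119.9 and 44.1, 94.2 and 97.0 and 47.8 and 36.8 CPM (-1.18 ± 0.41). For KIF18A and KIF14 both KD2 samples lay below all others, and for KIF20B CTR2 lay between the KD2 samples. KIF11, the Eg5 motor that pushes the spindle poles apart, was at 165 and 117, 179.8 and 174 and 118 and 76.4 CPM (-0.86 ± 0.28). KIF23, the motor of the centralspindlin complex, was at 101 and 77.2, 125 and 105 and 77.8 and 61.9 CPM (-0.72 ± 0.24). KIF20A, which brings passenger proteins to the central spindle, was at 101 and 124, 117 and 92.0 and 99.1 and 78.4 CPM, with -0.23 between the shRNAs and a 95% interval of -0.78 to 0.31. KIF2C, KIF4A and KIF22 lay between -0.46 and -0.0080, none at an unadjusted p under 0.05.

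**Figure D3:**
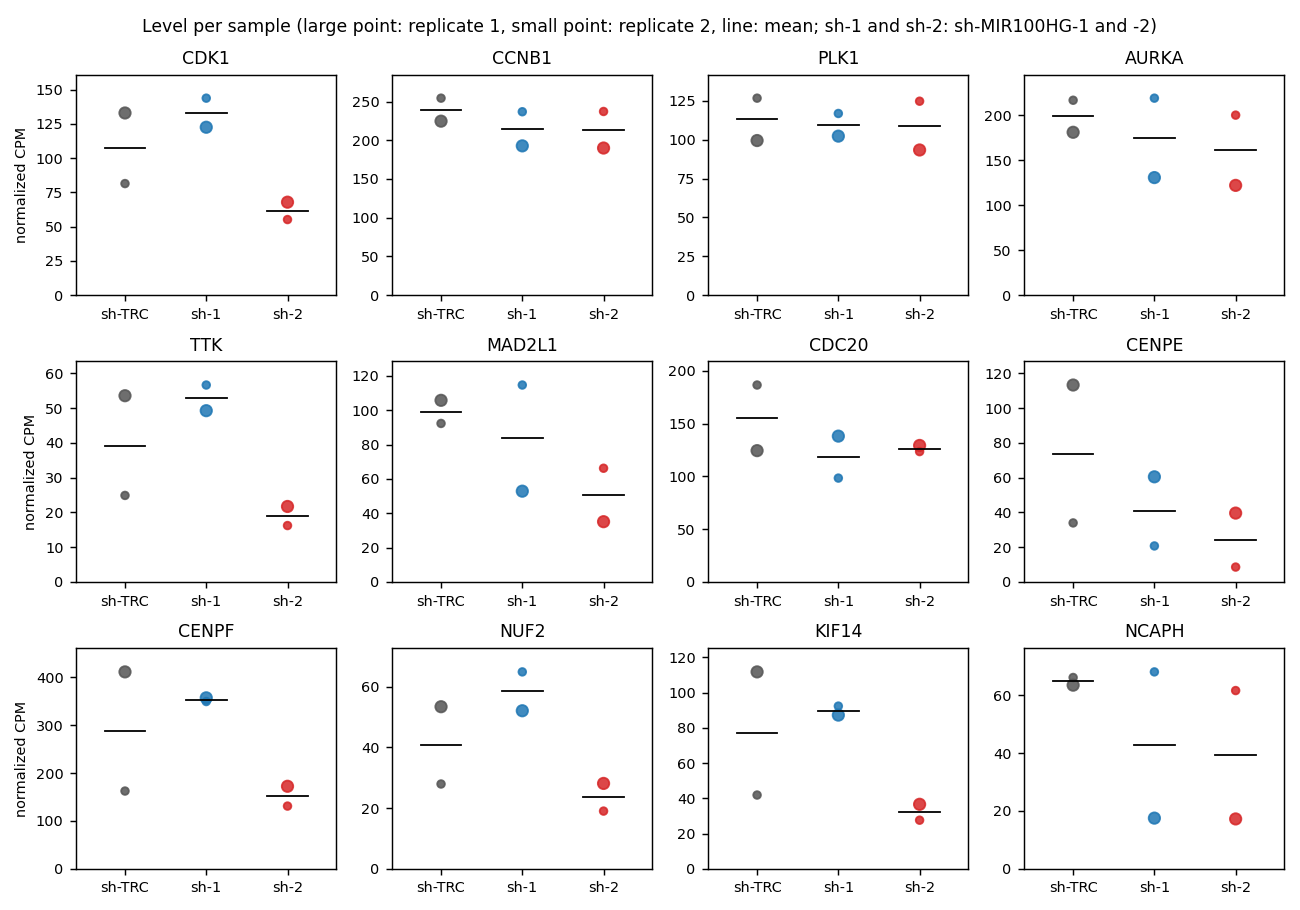
Normalized CPM of 12 mitotic genes in each sample, with a large point for replicate 1, a small point for replicate 2, a line at the group mean, and axes that start at 0. In CDK1, TTK, NUF2, KIF14 and CENPF the KD2 samples lie low and the controls lie apart from each other, whereas CCNB1, PLK1, AURKA and CDC20 overlap across groups, and CENPE and NCAPH are split by replicate.

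The 9 spindle and cytokinesis factors were all higher with sh-MIR100HG-1 than with sh-TRC, with a median of 0.30, and all lower with sh-MIR100HG-2, with a median of -0.30, except that TPX2 changed sign against sh-TRC under RLE scaling. In 8 of them both KD2 samples lay below both KD1 samples (23.3% of all genes). ANLN was at 408 and 270.1 CPM in the controls, 439 and 607 with sh-MIR100HG-1 and 268 and 284 with sh-MIR100HG-2. Both KD1 samples lay above all others, with a log2FC of 0.63 ± 0.26 against sh-TRC and -0.92 ± 0.27 between the shRNAs. ASPM, a spindle pole protein, was at 192 and 68.1, 171 and 149 and 70.8 and 45.0 CPM (-1.47 ± 0.45 between the shRNAs, -1.17 against sh-TRC). HMMR was at 10.4 and 6.24, 9.44 and 11.5 and 5.27 and 3.56 CPM (-1.25 ± 0.36) and had the fewest counts of the 60 genes, 409 per sample on average. DLGAP5 (HURP), which stabilizes spindle microtubules, was at 179 and 112, 197 and 140.03 and 117 and 54.1 CPM (-0.98 ± 0.39), and NUSAP1, a microtubule bundling protein, at 137 and 94.4, 139 and 174 and 92.3 and 99.996 CPM (-0.70 ± 0.25). In these 5 genes CTR2 was the lower control, below both KD1 samples. TPX2 was at 484 and 455, 509 and 666 and 400.2 and 528 CPM, with -0.34 between the shRNAs. PRC1, which bundles the central spindle, was at 155 and 151, 156 and 175 and 129 and 144 CPM, with -0.28. RACGAP1 and ECT2, which activate RhoA at the division site, stood at -0.27 and -0.66. None of the last 4 had an unadjusted p under 0.05.

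Condensin and topoisomerase II alpha shape and untangle mitotic chromosomes, and all 6 genes of the role lay lower with sh-MIR100HG-2 than with sh-MIR100HG-1, with a median of -0.81. TOP2A was at 616 and 474 CPM in the controls, 556 and 608 with sh-MIR100HG-1 and 385 and 309 with sh-MIR100HG-2. Both KD2 samples lay below the other 4 (-0.75 ± 0.23 between the shRNAs, -0.65 ± 0.23 against sh-TRC). Of the ATPase subunits of condensin, SMC2 was at 107 and 70.6, 117 and 112 and 70.9 and 44.2 CPM (-0.99 ± 0.30) and SMC4 at 104 and 56.9, 114 and 119 and 72.1 and 52.6 CPM (-0.90 ± 0.31). Of the subunits particular to condensin I, NCAPG was at 147 and 98.5, 135 and 172 and 88.9 and 77.8 CPM (-0.88 ± 0.26). NCAPD2 was at 244 and 294, 299.9 and 301 and 281 and 271 CPM, with a log2FC of -0.12 and a 95% interval of -0.58 to 0.34 between the shRNAs. NCAPH was at 63.4 and 66.1, 17.5 and 68.0 and 17.2 and 61.6 CPM, so that both first replicates of the shRNA groups lay far below the other 4 samples, and its SE was 0.67. The subunits of condensin I thus spanned a range of differences and of replicate spread, and no test compared them with each other.

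**Figure D4:**
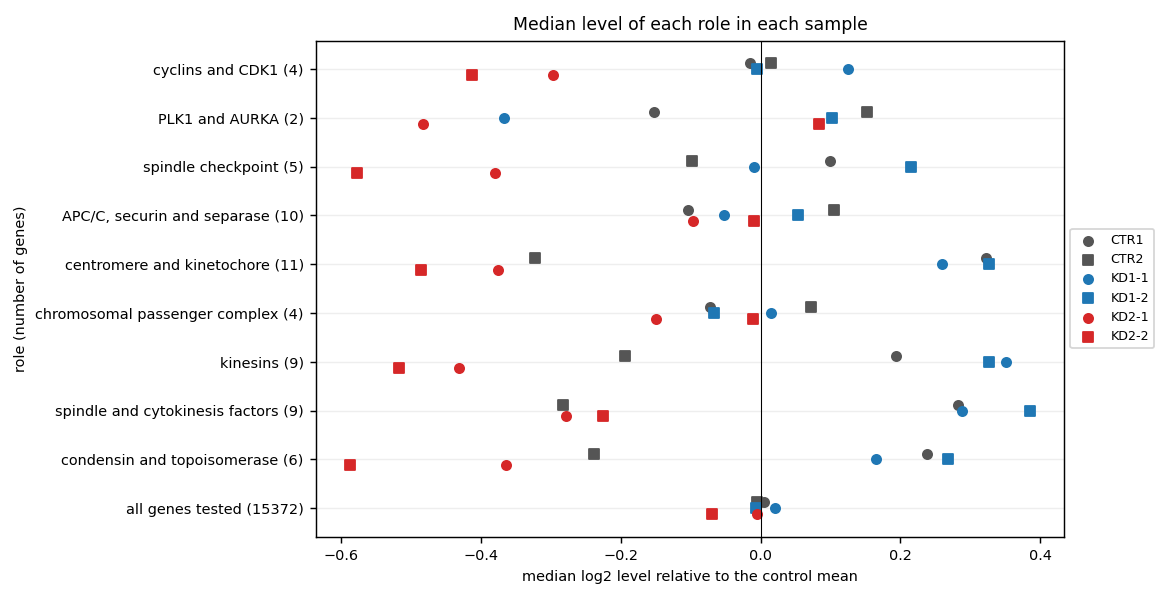
Median log2 level of each role in each sample relative to the mean of the controls, with circles for replicate 1 and squares for replicate 2, in grey for sh-TRC, blue for sh-MIR100HG-1 and red for sh-MIR100HG-2. In the kinetochore, kinesin, condensin and checkpoint roles both red points lie lowest, CTR2 is the lower control in those 4 roles and in the spindle and cytokinesis role, and all genes tested (bottom) lie near 0.

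The controls themselves were apart for the genes that differed between the shRNAs. In all 22 genes at an unadjusted p under 0.05, CTR2 lay below CTR1 and below both KD1 samples, and CTR1 lay above both KD2 samples. CTR2 lay above both KD2 samples in 9 of the 22. The 22 genes were picked for KD2 below KD1, a choice that itself favours a control below both KD1 samples or above both KD2 samples. The same counts over all genes were not made. For the other 38 genes CTR2 was the lower control in 13. Over the 60 genes, CTR2 minus CTR1 ran from -1.74 (CENPE) to 0.69 (UBE2S) on the log2 scale, and 9 genes were apart by more than 1, against 3 between the KD1 samples and 3 between the KD2 samples. For all genes tested those shares were 10.1%, 10.6% and 13.7%. Across the 60 genes the difference between the control replicates and the difference between the shRNA groups, which share no sample, ran in nearly the same order (Spearman's rho = 0.94, Pearson's r = 0.92, n = 60 genes, which are not independent replicates and share base composition).

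Base composition moved with both. The GC content of the counted exons ranged from 34.1% in KIF20B to 63.7% in FZR1, and across the 60 genes it went with the difference between the shRNAs (Spearman's rho = 0.83) and with CTR2 minus CTR1 (rho = 0.89). Over all 15372 genes these values were 0.35 and 0.41. In the lowest GC decile of all genes, which holds 17 of the 60, the median was -0.46 between the shRNAs and -0.46 between the control replicates, and in the highest decile it was 0.18 and 0.25. The 30 mitotic genes of lower GC content (34.1% to 42.2%) had a median of -0.89 between the shRNAs with 20 at an unadjusted p under 0.05, and the 30 of higher GC content (42.8% to 63.7%) a median of -0.11 with 2, BUB1B and NUSAP1. CTR2 minus CTR1 had medians of -0.62 and 0.15 in these sets of 30. The roles followed, with a median GC content of 53.6% in the passenger complex and 49.1% in the APC/C role, against 38.9% for condensin and topoisomerase, 40.1% for the kinesins and 40.2% for the kinetochore.

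**Figure D5:**
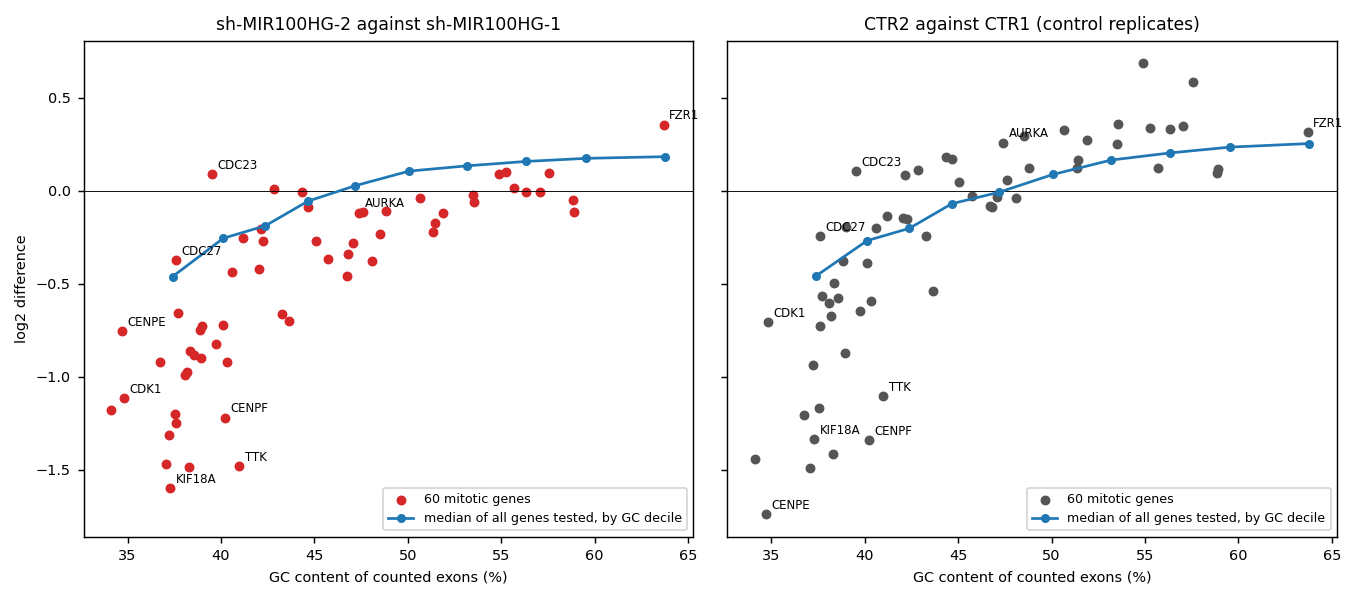
Log2 difference of the 60 mitotic genes (points) against the GC content of their counted exons in percent, between the shRNA groups on the left and between the control replicates on the right, with the median of all genes tested in each GC decile as a blue line. Both panels rise from left to right, most low-GC mitotic genes lie below the blue line, and CDC23 and CDC27 lie on or above it in both panels.

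Mitotic genes of like GC content had log2FCs of unlike size. Among the 4612 genes in the lowest 3 GC deciles (up to 43.5%), 12.3% were lower between the shRNAs at an unadjusted p under 0.05, and of the 32 mitotic genes in those deciles 21 were. In the lowest decile alone, 14 of the 17 mitotic genes were, against 19.1% of all genes. As examples picked after their values were seen, KIF18A (37.3% GC) differed by -1.60 and TTK (40.992%) by -1.48, whereas CDC27 (37.6%) differed by -0.37 and CDC23 (39.5%) by 0.091. No test compared these genes with each other. When each sample was fitted with a smooth trend on GC content and exon length, an alternative added after the data had been seen, 54 of the 60 genes were lower between the shRNAs, 20 of them at an unadjusted p under 0.05 (4.5% of all genes lower), with a median of -0.30 in place of -0.37. The medians of single roles moved further, from -0.66 to -0.31 in the checkpoint role, from -0.76 to -0.41 in the kinetochore role, from -0.81 to -0.47 for condensin and topoisomerase and from -0.72 to -0.44 for the kinesins. The passenger complex went from -0.075 to -0.19 with all 4 genes lower, so that the roles lay closer together, and the 30 genes of lower GC content went from -0.89 to -0.53. Of the 22 genes, 19 kept an unadjusted p under 0.05, with log2FCs from -0.41 to -1.25, and TTK stood at -1.25, KIF18A at -1.22 and CDK1 at -0.60. After that correction the 30 genes of lower GC content had medians of 0.13, -0.13, 0.19, 0.14, -0.43 and -0.35 in CTR1, CTR2, KD1-1, KD1-2, KD2-1 and KD2-2. Both KD2 samples lay below both controls, as they did without it (-0.38 and -0.73, against 0.31 and -0.31). In the 30 genes of higher GC content the corrected medians were -0.052, 0.052, 0.032, 0.13, -0.22 and -0.037, so that KD2-2 lay between the controls. The correlation of the corrected differences with GC content was still 0.61, and the part of GC content in the result beyond this correction was not tested.

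The 86 other mitotic genes had the same shape in the same 6 samples. They were listed by function and not by how they moved, but with earlier results of these data known. Between the shRNAs 75 of 86 were lower, 29 of them at an unadjusted p under 0.05 (6.12% of all genes) and 0 higher (3.34%), with a median of -0.39, and both KD2 samples lay below both KD1 samples in 53 (23.3%). The counts at an unadjusted p under 0.05 were 9 of 30 further centromere and kinetochore genes, 7 of 16 kinesins and spindle factors, 5 of 6 cytokinesis factors, 4 of 14 genes of condensin II, cohesin and the chromosome surface, 3 of 9 kinases and regulators, and 1 of 11 further APC/C genes. Against sh-TRC, the counts were 9 lower (5.15% of all genes) and 1 higher (3.71%) with sh-MIR100HG-2, and 4 higher (3.1%) and 0 lower (3.77%) with sh-MIR100HG-1, the last pair near the share of all genes. SGO2, the shugoshin that protects centromeric cohesin, was at 57.8 and 20.7 CPM in the controls, 50.3 and 54.8 with sh-MIR100HG-1 and 22.8 and 13.1 with sh-MIR100HG-2 (log2FC of -1.55 between the shRNAs). CIT, the citron kinase of the midbody, was at 144 and 128, 153 and 139, and 86.6 and 80.1 CPM (-0.81). MKI67, the proliferation antigen that coats chromosomes, was at 549 and 497, 721 and 753, and 524 and 491 CPM (-0.54). SGO2, CIT and MKI67 were picked as examples after their values were seen. With the GC and length correction 24 of the 86 were at an unadjusted p under 0.05, all lower (4.5% of all genes), and the median was -0.28.

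The promoter matches were set beside the differences as a description. Of the 22 genes at an unadjusted p under 0.05 between the shRNAs, 20 had a listed window, and 19 of these (95.0%) held a CHR match, against 18 of 31 (58.1%) of the other members. A CCAAT match was found in 13 of the 20 and in 27 of the 31. PLK1, CCNB2, CDC20 and CENPA, whose CHR matches are shown above, were among those other members.

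Counting could affect some values. Of the 60 genes, 18 share exon bases with another annotated gene, most of all NCAPG (33.1% of its counted length, with LCORL on the other strand), BIRC5 (26.4%), SMC4 (25.6%, with IFT80 and TRIM59), UBE2S (24.2%) and CENPN (12.8%, with CMC2). Since neither the strand setting of the counting nor the treatment of multiply mapped reads is given in the sources used here, reads of these pairs, and of genes with close copies or pseudogenes elsewhere such as KIF4A, PTTG1, CDC27 and ANAPC1, may be shared. Without the low-count filter, edgeR called 13 of the 60 genes lower between the shRNAs (2.3% of all genes). It called 8 lower with sh-MIR100HG-2 than with sh-TRC (1.66%) and CENPE lower for the mean of both hairpins (1.28%). For that mean, CENPE had a log2FC of -1.23 ± 0.24 (SE), against -1.24 ± 0.66 with the filter.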

How the data were processed

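Per the labels and methods, total RNA was extracted with TRIzol and libraries were made by standard Illumina protocols. STAR (version 2.5.2a in the submitters' processing notes) was used by the authors to map reads to GRCh37 with GENCODE gene models, and FeatureCounts to count reads in exons by gene. The values they deposited are raw counts per gene, with no normalization. Strand setting and multiple mapping are not given in the sources used here. The 6 samples were grouped by their titles.

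Genes with fewer than 5 counts in at least 3 of 6 samples were removed (12373 of 27745), as in the study, and 15372 were tested in one model of 3 groups with edgeR 4.0.16 (quasi-likelihood test, TMM, 3 residual and 5.37 prior degrees of freedom) in R 4.3.3, with Benjamini-Hochberg adjustment over all genes. The biological coefficient of variation common to all genes was 27.8%, and with at least 409 counts a gene on average, counting error is small beside it. Intervals use the edgeR SE and 8.37 degrees of freedom.

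The mitotic genes, the other lists and the alternatives were chosen with earlier results of these data known. Genes named are those at an unadjusted p under 0.05 in a comparison, fixed leading members of each role and MIR100HG. SGO2, CIT, MKI67, FZR1, ANAPC1, BUB3, INCENP and the genes cited for replicate spread, exon overlap or GC content were named after their values were seen. Alternatives were a likelihood ratio test, DESeq2 1.42.0, RLE scaling, no low-count filter, a replicate block, each sample left out in turn, and, added later, a correction for GC content and length. GC content was computed from the counted exons on GRCh37, and promoter windows came from RefSeq. The fits were tested on simulated counts.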

Additional observations from a re-analysis of the deposited data

Results flagged for a closer look

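For 3 of the 60 genes (5%, against 1.95% of all genes tested), both sh-MIR100HG-1 samples lay above both controls and both sh-MIR100HG-2 samples below both controls. They were BUB1B (log2FC of -0.66 between the shRNAs), PRC1 (-0.28) and RACGAP1 (-0.27). The direct edgeR test of the difference between the shRNAs gave adjusted p-values of 0.509, 0.642 and 0.646, which missed the threshold of 0.05. Groups of 2 samples are too small to look for single samples far from the rest of their group.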

How the results depend on the processing

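The calls at an adjusted p of 0.05 moved in 5 places, and leaving out CTR1 turned the median for the mean of both hairpins from -0.11 to 0.028, while the medians of the 60 genes in the other 3 comparisons kept their sign under the alternatives run. The median of all genes between the shRNAs moved from -0.012 to 0.014 with RLE scaling or DESeq2 and to 0.037 with the GC correction, and that of the passenger complex for sh-MIR100HG-1 from -0.014 to 0.13 with the GC correction. Without the low-count filter 13 genes were called between the shRNAs, 8 for sh-MIR100HG-2 against sh-TRC and 1 for the mean of both hairpins. That 1 gene was CENPE, whose SE for the mean was 0.24 in place of 0.66. DESeq2 called 2 and the likelihood ratio test 1 between the shRNAs, and the cause was not tested. At an unadjusted p under 0.05, leaving out the filter gave 4 genes for the mean of both hairpins, 4 with the first hairpin and 18 with the second (1, 1 and 10 in the report), and the likelihood ratio test gave 0 for the mean. Leaving out 1 sample at a time, the counts ran from 1 to 7 for the mean of both hairpins, from 0 to 13 for sh-MIR100HG-1, from 0 to 18 for sh-MIR100HG-2 and from 12 to 23 between the shRNAs, and the medians from -0.13 to 0.028, 0.063 to 0.23, -0.39 to -0.22 and -0.44 to -0.33. A lone sample was assumed to vary like the other groups. The GC content and length correction gave medians of 0.098 with sh-MIR100HG-1, -0.24 with sh-MIR100HG-2 and -0.30 between the shRNAs, and 0 genes for sh-MIR100HG-1. Replicate numbers were not used to pair samples, since the deviations of same-numbered samples correlated at -0.21, 0.0063 and 0.44 across all genes, but across the 60 genes the values were 0.14, 0.63 and 0.75, so pairing for these genes is undecided. With the replicate block the counts were 4, 3, 20 and 25 (1, 1, 10 and 22 without it), CENPE against sh-TRC with sh-MIR100HG-2 went from an unadjusted edgeR p of 0.0777 to 8.4e-05, and 0 genes were called, and with the block and the GC correction 6, 2, 17 and 22, with a median of -0.30 between the shRNAs. With the numbers of the control samples exchanged, the blocked counts were 3, 1, 12 and 23. Depth was not the limit for these genes, and with 2 samples a group the SE of a log2FC was at least 0.20 between the shRNAs.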
